A study of Homo sapiens with 2 samples.

Results

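The genes described here are the nuclear genes of oxidative phosphorylation: subunits of respiratory complexes I to IV and of the ATP synthase (complex V). Complex I assembly factors, tissue-specific or related copies of some subunits, and related factors listed under complex V are included. These genes were taken by symbol (the NDUF, SDH, UQCR, COX4 to COX8 and ATP5 families and CYC1), a choice made with earlier results of these data known. Leaving out 124 names of pseudogenes gave 95 of the 50867 genes in the table. By complex there were 37 complex I subunits, 7 complex I assembly factors, 4 genes of complex II, 10 of complex III, 19 of complex IV and 18 of complex V. The symbols are those of the deposited table, and 17 of the 95 genes carry a newer name in GENCODE release 29, such as ATP5F1A for ATP5A1.

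The cells were HCT116, an established line from a human colorectal carcinoma, and they received either a control siRNA or an siRNA against PHF5A before their RNA was sequenced. PHF5A belongs to SF3b, the splicing complex that recognises intron branch points, and the study asked which transcripts depend on it. Each group held 1 library, of 26552789 counts for the control and 25897412 for the knockdown, so no difference below has a replicate check, no p-value is given, and an effect of PHF5A loss cannot be told apart from another effect of the siRNA or from a difference between cultures. In bulk RNA, fewer cells of a type and less RNA per cell cannot be told apart either. Counts of PHF5A were 367 with the control siRNA and 91 with its own. Transcripts for epithelial keratins, EPCAM and CDH1 were present in both libraries, and 6 of 11 colon epithelium markers reached 1 FPKM, while KRT20 and CDX1 were at 0. Heart muscle markers, most of which a colorectal line should lack, took 0.371% of the control library's counts and 0.00149% of the knockdown library's, with all 18 at 1 FPKM or more in the control. Of 7 fibroblast markers, 2 reached 1 FPKM, COL3A1 (959 and 31 counts) and COL1A1 (1362 and 786), and the list's summed CPM was 3.31-fold lower after knockdown. CDX2, an intestinal factor among the colon markers, was 2.18-fold lower.

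Oxidative phosphorylation passes electrons from NADH (complex I) and succinate (complex II) through complex III to oxygen at complex IV, and the proton gradient built on the way drives ATP synthesis by complex V. Most subunits are encoded in the nucleus and imported into mitochondria, while a small hydrophobic set is encoded on the mitochondrial chromosome. Genes of the nuclear set often carry promoter motifs of NRF1, of ETS factors such as the GABP complex, and of YY1. Some subunits have several genes, used in different tissues or encoding the same mature protein.

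Levels are given as FPKM, fragments per kilobase of gene scaled to the library's total, and as counts. Expressed genes are those that reached 1 FPKM in either library, 8957 in the whole table. Log2 ratios (knockdown over control) were taken after adding 1 to each FPKM, which understates the change of low genes, and counts of genes past 1.5-fold or 2-fold use this scale. Fold values given for single genes come from CPM, counts relative to the library's total, and carry 95% exact binomial intervals, which cover counting error only. Of all expressed genes, 2.53% were higher by 2-fold or more in the knockdown library and 6.2% lower by as much, and their median log2 ratio was -0.15.

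Promoters are shown for the 3 genes at least 2-fold apart between the libraries, ATP5G1, COX7A2L and NDUFA3, and for ATP5G2, which encodes the same mature subunit c as ATP5G1. Each is the 150 bases before the RefSeq transcription start (GRCh38.p14), read on the gene's strand: chr17:48892637-48892786 (plus) for ATP5G1, chr12:53676084-53676233 (minus) for ATP5G2, chr19:54102705-54102854 (plus) for NDUFA3 and chr2:42361218-42361367 (minus) for COX7A2L. Capitals mark the exact letters GCATGCGC of an NRF1 motif. Variant forms of the motifs were not searched and stay in lower case.
ATP5G1: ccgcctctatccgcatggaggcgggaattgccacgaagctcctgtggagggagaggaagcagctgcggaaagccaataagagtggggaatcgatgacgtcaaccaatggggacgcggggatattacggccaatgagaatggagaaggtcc
ATP5G2: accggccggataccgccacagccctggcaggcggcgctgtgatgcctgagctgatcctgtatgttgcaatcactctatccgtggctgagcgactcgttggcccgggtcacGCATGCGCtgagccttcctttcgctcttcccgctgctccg
NDUFA3: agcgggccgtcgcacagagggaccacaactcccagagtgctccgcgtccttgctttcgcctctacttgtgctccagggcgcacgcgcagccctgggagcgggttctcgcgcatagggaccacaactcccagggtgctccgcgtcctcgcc
COX7A2L: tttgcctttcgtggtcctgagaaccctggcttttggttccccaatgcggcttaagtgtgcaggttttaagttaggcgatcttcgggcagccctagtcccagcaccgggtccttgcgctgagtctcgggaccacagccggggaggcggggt
ATP5G2 held the NRF1 letters GCATGCGC with their first base 40 bases before the start, and ATP5G1 and COX7A2L held none of the searched motifs in the 300-base window from 250 bases before to 50 after the start. In NDUFA3 a YY1 match began in the transcribed bases of that window, outside the stretch shown. Each stretch lies wholly or partly within its gene's bounds in the deposited table. Other starts of these genes were not searched.

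The motifs searched, on both strands, were GCATGCGC for NRF1, CCGGAAG for ETS factors and AAGATGGC for YY1. The ETS letters end and the YY1 letters begin with AAG, so 1 stretch can count for both. Of the 95 genes, 74 had a window in the RefSeq table, which holds 35116 windows of the same length. The NRF1 letters were in 15 of the 74 windows (20.3%) and in 3.05% of all windows. ETS letters were in 20 (27.0%) and in 10.3% of all, and YY1 letters in 11 (14.9%) and in 2.89% of all. The 35116 windows were not limited to protein-coding or expressed genes, so these shares come from unlike sets. No share was taken over expressed protein-coding genes alone. Expressed genes with the NRF1 letters had a median log2 ratio of -0.04 and those without -0.11. With and without the ETS letters the medians were 0.02 and -0.23, and with and without the YY1 letters -0.23 and -0.01. A match to these letters is not a measured binding site.

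Most of these genes differed by less than 1.5-fold between the 2 libraries. Of the 95 genes, 78 were expressed, with a median log2 ratio of -0.06, which was 0.09 above the median of all expressed genes; 42 of the 78 lay above that median. NDUFA3 was the 1 gene at least 2-fold higher, where 2.53% of expressed genes were, and ATP5G1 and COX7A2L were the 2 at least 2-fold lower, where 6.2% were. With ratios centred on the median of expressed genes, UQCRQ joined the higher ones (3.85% of all expressed genes) and the lower ones stayed at 2 (3.997% of all). Under rescaling to TPM, which moved the median of all expressed genes to -0.47, the split was 1 higher and 6 lower, beside 1.11% and 14.5% of all expressed genes. Between the settings tried, 9 of the 78 genes were higher in every one that kept them, 32 were lower and 37 changed sign. Filters, pseudocounts and the gene length leave a gene's sign as it is, so these counts rest on the scalings and the sums with pseudogenes. How many of all expressed genes kept or changed sign was not counted. As deposited, 43 of the 78 genes and 5552 of the 8957 expressed genes had log2 ratios below 0. At 1.5-fold, 6 genes were higher (8.45% of all expressed genes) and 8 lower (18.2% of them). The 6 were NDUFA3, UQCRQ, NDUFA11, ATP5I, NDUFA13 and ATP5D, and the 8 were ATP5G1, COX7A2L, ATP5A1, UQCRC1, COX7B, UQCRC2, SDHC and NDUFB8. The whole set took 0.824% of the control library's counts and 0.757% of the knockdown library's, while protein-coding genes as a whole went from 78.4% to 70.2%.

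**Figure D1:**
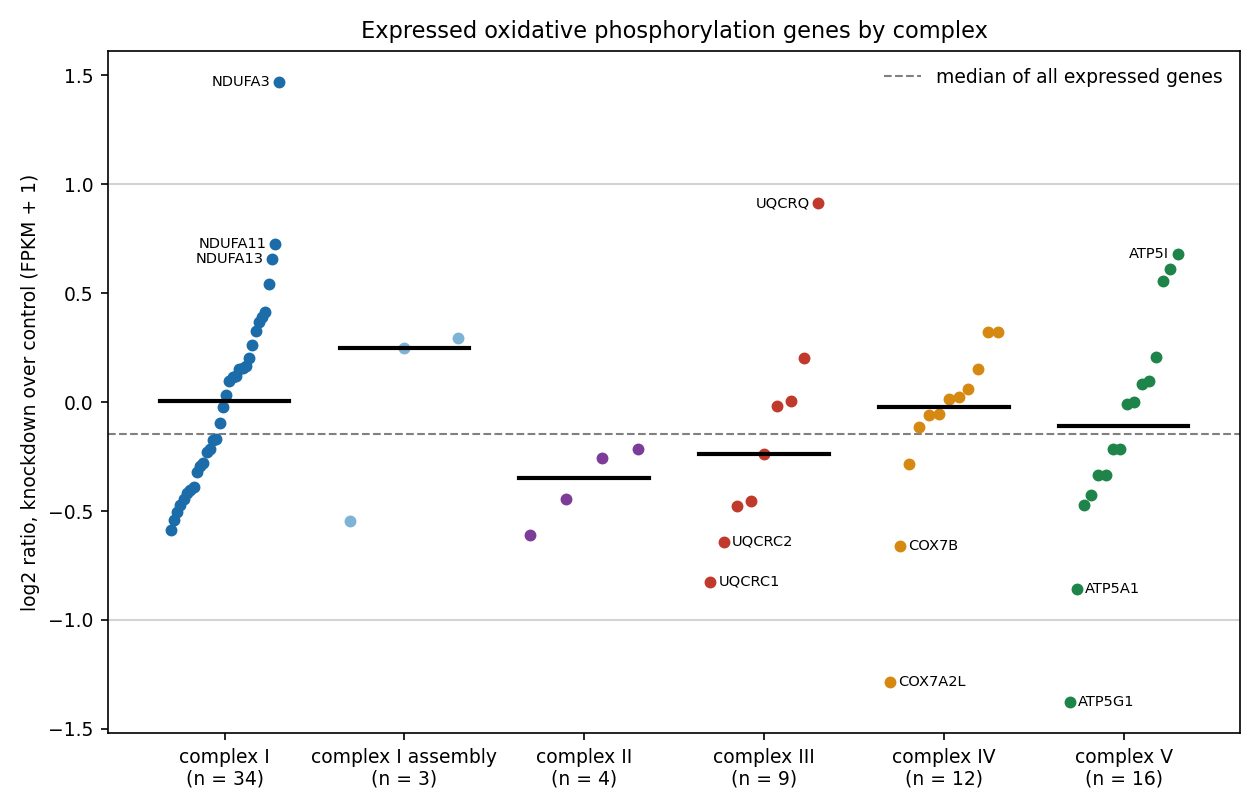
Log2 ratio of knockdown to control (FPKM + 1) on the y axis for the 78 expressed genes, grouped by complex on the x axis and ordered by value within each; each point is 1 gene, black bars are the complex medians, the dashed line is the median of all expressed genes (-0.15) and grey lines mark 2-fold. Complex II lies wholly below the dashed line, and ATP5G1, COX7A2L and NDUFA3 lie beyond the grey lines.

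By complex, the medians of complexes I and IV lay above that of all expressed genes, by 0.15 and 0.13 on the log2 scale, and those of complexes II and III lay below it, by 0.20 and 0.09. These 4 directions were the same under every scaling, pseudocount and filter tried. Complex V was 0.04 above, a direction that turned under TPM rescaling and with no filter. Its list holds ATP5SL (DMAC2 in GENCODE 29), a related factor and not a subunit, at a log2 ratio of 0.08. Without ATP5SL the middle gene of complex V is ATP5J, at -0.07 relative to the median of all expressed genes, so the direction turns. The plot of ratios by complex shows that the genes within complexes I, III and V spread more widely than the medians differ. Summed over all its genes, complex I went from 0.189% to 0.216% of counts between the control and the knockdown library. Complex III went from 0.185% to 0.126%, complex II from 0.0387% to 0.0298%, complex IV from 0.145% to 0.149% and complex V from 0.259% to 0.230%. Protein-coding genes as a whole went from 78.4% to 70.2%. The noncoding RNAs RN7SL1, RN7SL2, RN7SK and RPPH1 together went from 9.61% to 16.0%.

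Complex I takes electrons from NADH through a chain of flavin and iron-sulfur centres held by 7 nuclear core subunits. All 7 were expressed, with log2 ratios from -0.32 to 0.39 and a median of 0.03, and none was 1.5-fold apart between the libraries. NDUFS8, an iron-sulfur subunit, had 25.1 FPKM in the control library and 33.2 after knockdown, and NDUFV1, which binds NADH and the flavin, had 16.0 and 20.3; both directions turned under TPM rescaling. NDUFV2 had 4.004 and 4.11, NDUFS7 6.39 and 6.27, and NDUFS3 15.03 and 13.3. NDUFS1, the largest core subunit, was the lowest of the 7 in ratio, with 1.77 FPKM in the control and 1.22 after knockdown. Core subunits thus lay on both sides of equal levels, 5 of the 7 above the median of all expressed genes.

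The accessory subunits of complex I surround the core and are needed for its assembly and stability. Of 30, 27 were expressed, with a median log2 ratio of -0.10 and a range from -0.59 to 1.47. NDUFA3 (ENSG00000170906, chromosome 19, 54102728 to 54109257, GRCh38) was counted 638 times in the control and 1931 times after knockdown, which is 5.33 and 16.5 FPKM. Its CPM was 3.10-fold higher in the knockdown library (interval 2.84 to 3.40), and its ratio stayed above 2-fold under every alternative tried. TFPT overlaps NDUFA3 on the opposite strand with 68 and 130 counts, fewer than NDUFA3 in both libraries. Whether strand was used in counting is not known here, so reads of the 2 genes cannot be told apart.

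NDUFA11, a membrane-arm subunit, had 14.1 and 23.9 FPKM, 1.70-fold higher in the knockdown library (1.61 to 1.79). It shares its strand and place with AC024592.12, an entry with 3334 and 2656 counts against 2264 and 3752 for NDUFA11, so reads may have been split between them. NDUFA13, also known as GRIM-19, had 34.5 and 55.04 FPKM, 1.59-fold higher (1.53 to 1.66). At the other end, NDUFB8, a membrane-arm subunit often used as an indicator of assembled complex I, had 26.9 FPKM in the control and 17.6 after knockdown, 1.53-fold lower (1.44 to 1.63). NDUFB8 shares its strand and place with RP11-411B6.6, an entry with 368 and 699 counts against 2671 and 1701 for NDUFB8, so reads may have been split here too. HIF1AN overlaps NDUFB8 on the opposite strand with 3013 and 2230 counts. NDUFA10 had 3.44 and 2.05 FPKM and NDUFV3 3.18 and 1.95. The highest and lowest accessory subunits were therefore apart in opposite directions by more than counting error.

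Of the 7 complex I assembly factors that the symbol rule takes, NDUFAF1, NDUFAF3 and NDUFAF4 were expressed. NDUFAF3 had 16.1 and 10.7 FPKM, while NDUFAF1 had 2.345 and 3.10 and NDUFAF4 1.37 and 1.81. The other 4 (NDUFAF2, NDUFAF5, NDUFAF6 and NDUFAF7) had between 4 and 72 counts and stayed under 1 FPKM. The 3 expressed factors did not share a direction, so their median of 0.25 describes 3 differing values.

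Complex II, succinate dehydrogenase, is also an enzyme of the tricarboxylic acid cycle and has no subunit from the mitochondrial chromosome. All 4 of its genes were lower in the knockdown library, with log2 ratios from -0.61 to -0.22, except that SDHB was level or slightly higher under upper-quartile scaling (0.01). All 4 lay below the median of expressed genes in each setting that kept them. SDHD passed the level filter through the control library alone. SDHA, the flavoprotein, had 17.6 FPKM in the control and 14.6 after knockdown. SDHB, the iron-sulfur subunit, had 13.3 and 11.3. SDHC and SDHD anchor the enzyme in the inner membrane: SDHC had 4.85 and 2.83 FPKM, 1.71-fold lower (1.60 to 1.83), and SDHD had 1.66 and 0.960, 1.73-fold lower (1.41 to 2.14). In CPM both anchors were further apart than the 2 catalytic subunits, which were 1.21-fold (1.16 to 1.25) and 1.18-fold lower (1.08 to 1.28). TIMM8B overlaps SDHD on the opposite strand with 409 and 524 counts, beside 256 and 144 of SDHD, and its part was not tested. Pseudogenes named for SDHA held 330 and 359 counts beside 6516 and 5267 of SDHA itself.

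Complex III passes electrons from ubiquinol to cytochrome c. Its 4 core genes in this set were all lower in the knockdown library and all below the median of expressed genes, with a median log2 ratio of -0.56. UQCRC1, a core protein of the matrix arm (ENSG00000010256, chromosome 3, 48599002 to 48610976), was counted 23308 times in the control and 12759 times after knockdown, or 146 and 81.8 FPKM, 1.78-fold lower (1.74 to 1.82). Its partner UQCRC2 had 8.21 and 4.91 FPKM, 1.67-fold lower (1.55 to 1.81). CYC1, cytochrome c1, had 173 and 124 FPKM, and UQCRFS1, the Rieske iron-sulfur protein, had 26.7 and 19.2, each 1.39-fold lower in CPM. Because UQCRC1 and CYC1 held most of the complex's counts, the summed CPM of complex III was 1.46-fold lower, against 1.07-fold without these 2 genes.

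The accessory subunits of complex III did not share that direction. UQCRQ, a small subunit that touches cytochrome b (ENSG00000164405, chromosome 5, 132866560 to 132868031), was counted 391 times in the control and 794 times after knockdown, or 4.42 and 9.21 FPKM, 2.08-fold higher in CPM (1.84 to 2.36). On the scale with 1 added to FPKM it lay just under 2-fold, at a log2 ratio of 0.91. UQCR11 had 36.4 and 42.0 FPKM, UQCR10 26.03 and 25.7, UQCRH 10.2 and 8.46, and UQCRHL, an intronless copy of UQCRH, 1.002 and 1.01. UQCRB had 72 and 60 counts and stayed under 1 FPKM. Core and accessory genes therefore had medians of -0.56 and 0.01, a difference that was not tested. The accessory median is the value of UQCRHL, with 58 and 57 counts.

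**Figure D2:**
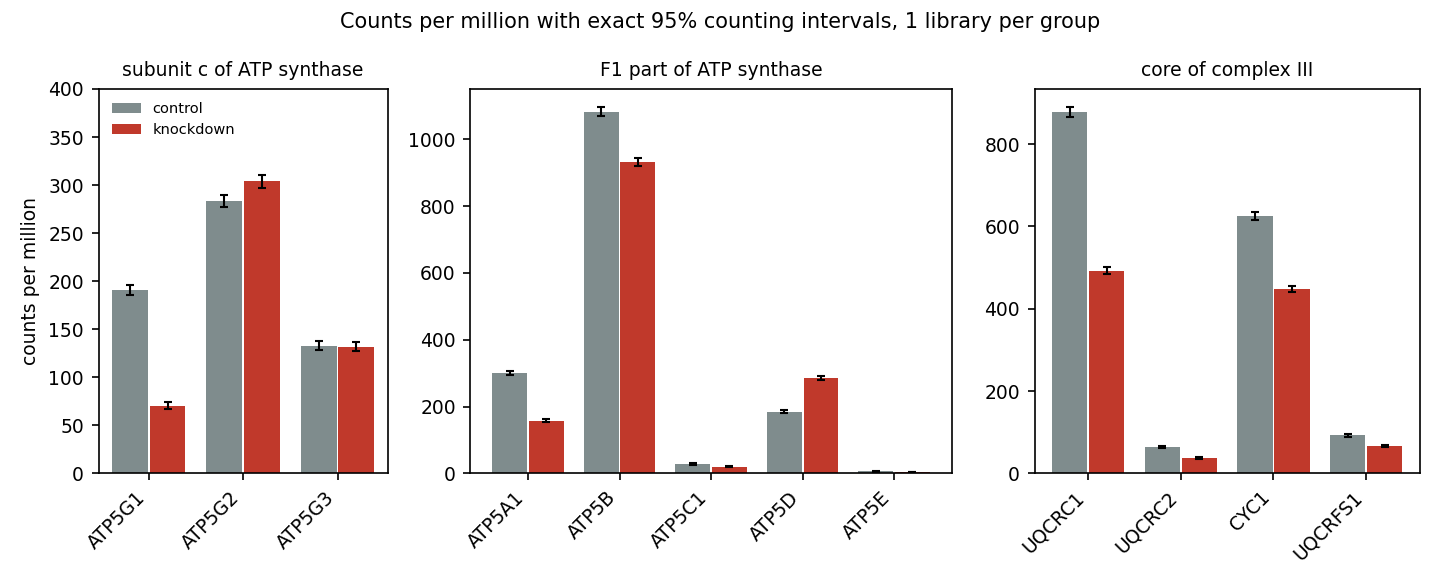
CPM (y axis, linear from 0, a separate scale in each panel) in the control library (grey) and the PHF5A knockdown library (red) for the 3 subunit c genes, the 5 genes of the F1 part of ATP synthase and the 4 core genes of complex III; error bars are exact 95% counting intervals of 1 library each. ATP5G1 is the 1 subunit c gene lower beyond its counting interval, ATP5D is the 1 F1 gene that is higher, and all 4 core genes of complex III are lower in the knockdown library.

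Complex V makes ATP in its F1 part and carries protons through a ring of subunit c in the membrane. Subunit c is encoded by ATP5G1, ATP5G2 and ATP5G3, whose products differ in the import sequence and give the same mature protein. ATP5G1 (ENSG00000159199, chromosome 17, 48892765 to 48895871) was counted 5056 times in the control and 1825 times after knockdown, or 41.2 and 15.3 FPKM, 2.70-fold lower in the knockdown library (2.56 to 2.85). ATP5G2 had 7528 and 7873 counts, or 39.2 and 42.1 FPKM, a CPM ratio of 1.07 (1.04 to 1.11) that turned under TPM rescaling. ATP5G3 had 3527 and 3417 counts, or 16.2 and 16.1 FPKM, a ratio of 0.993 (0.947 to 1.04). Scaled to the library total, ATP5G1 was thus the 1 gene of the 3 that was lower beyond counting error, as the plot of CPM by subunit shows. Under TPM rescaling all 3 were lower, with log2 ratios of -1.79 for ATP5G1, -0.31 for ATP5G2 and -0.41 for ATP5G3. ATP5G1 held 31.4% of the subunit c counts in the control library (exact interval 30.7 to 32.1%) and 13.9% in the knockdown library (13.3 to 14.5%). The share of ATP5G2 was 46.7% and 60.0%, and that of ATP5G3 21.9% and 26.1%. Summed over the 3 genes, CPM was 1.20-fold lower (1.17 to 1.23). Pseudogenes named for ATP5G1 added 3 counts and 1 count.

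In the F1 part, ATP5A1 and ATP5B encode the alpha and beta subunits that form the catalytic ring in equal number. ATP5A1 had 7971 and 4095 counts, or 18.0 and 9.49 FPKM, 1.90-fold lower (1.83 to 1.97). ATP5B had 28753 and 24138 counts, or 191 and 164 FPKM, 1.16-fold lower (1.14 to 1.18), a direction that turned under upper-quartile scaling. The intervals of these partners did not overlap. ATP5C1, the gamma subunit of the central shaft, had 7.75 and 5.51 FPKM, and ATP5E, the epsilon subunit, had 1.05 and 0.625. ATP5D, the delta subunit beside epsilon, was higher in the knockdown library, with 31.1 and 47.9 FPKM, 1.54-fold (1.49 to 1.60). Of the 5 F1 genes, 4 lay below the median of all expressed genes and ATP5D above it. ATP5E, 1 of the 4, passed the level filter through the control library alone.

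The 4 genes of the peripheral stalk, which holds F1 still against the ring, had log2 ratios from -0.47 to 0.00. ATP5F1, subunit b, was the lowest, with 6.18 and 4.17 FPKM, and ATP5H the highest, with 9.27 and 9.28. Among the small membrane subunits, ATP5I (subunit e) had 4.62 and 7.99 FPKM, 1.73-fold higher (1.42 to 2.11), and ATP5L (subunit g) had 3.38 and 5.44, 1.61-fold higher (1.44 to 1.80). Subunits e and g sit together where ATP synthases pair into dimers. MYL5, a muscle light chain gene, overlaps ATP5I on the opposite strand with 115 and 60 counts beside 164 and 277 of ATP5I. ATP5J2 (subunit f) had 16.7 and 19.5 FPKM. Within complex V, then, ATP5G1 was the 1 membrane subunit gene at least 1.5-fold lower, and those of subunits e and g were higher under every scaling.

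Complex IV reduces oxygen to water, and its nuclear subunits surround a catalytic core encoded on the mitochondrial chromosome. All 11 ubiquitous subunits were expressed, with a median log2 ratio of 0.01 and 9 of 11 above the median of all expressed genes. COX8A had the highest FPKM of all 95 genes in both libraries, 414 and 517, 1.25-fold higher in the knockdown library (1.21 to 1.29), a direction that turned under TPM rescaling. COX6B1 had 74.8 and 93.8 FPKM and NDUFA4, first assigned to complex I and now to complex IV, 7.795 and 8.76, and both turned under TPM rescaling as well. COX6A1 with 172 and 176 FPKM and COX4I1 with 21.9 and 22.1 were nearly equal in both libraries as deposited. That depended on the scaling: both had log2 ratios of -0.39 under TPM rescaling, and 0.27 and 0.25 under upper-quartile scaling. COX7A2 had 28.7 and 26.5 FPKM and COX7C 12.7 and 10.3. COX7B was the lowest of the 11 in ratio, with 5.66 and 3.22 FPKM, 1.76-fold lower (1.52 to 2.04). Pseudogenes named for COX6A1 added 819 and 752 counts to its 8108 and 8051.

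COX7A2L (also SCAF1 or COX7RP), a relative of COX7A2 that joins complexes III and IV into supercomplexes (ENSG00000115944, chromosome 2, 42333546 to 42425088), was counted 701 times in the control and 159 times after knockdown. In FPKM this is 3.32 and 0.772, and its CPM was 4.30-fold lower in the knockdown library (3.61 to 5.14). It passed the level filter through the control library alone, as did SDHD, ATP5E, NDUFB6 and NDUFA12. It was the gene with the largest CPM fold among the 78 expressed, and COX7A2 itself was 1.08-fold lower (1.03 to 1.14).

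The tissue-specific copies had few or no counts. COX4I2, COX7A1, COX7B2 and COX8C, copies used mainly in lung, muscle or testis, had 0 counts in both libraries, where 3 counts would be 0.113 and 0.116 CPM. COX6A2, the heart and muscle form of COX6A1, was counted 9 times in the control and 0 times after knockdown, a CPM ratio of at most 0.519 by its exact interval. The muscle form COX7A1 was thus at 0, and COX6A2 near 0, in the control library in which the heart muscle markers took 0.371% of counts. The part of those heart transcripts, or of the fibroblast ones, in the members' differences was not tested. COX6B2 had 56 and 76 counts and NDUFA4L2 18 and 36, a CPM ratio of 2.05 (1.13 to 3.84) at a level under 1 FPKM. SHMT2 overlaps NDUFA4L2 on the opposite strand with 14956 and 17787 counts.

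In all, 17 of the 95 genes stayed under 1 FPKM in both libraries. Beside ATP5L2 and these 4 COX copies at 0, 12 had counts, among them NDUFA5, NDUFB5, NDUFB1, UQCRB and ATP5S. NDUFA5 was counted 141 times in the control and 42 times after knockdown. NDUFA5 was 3.27-fold lower in CPM and fell outside the counts of members above because of the level filter.

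**Figure D3:**
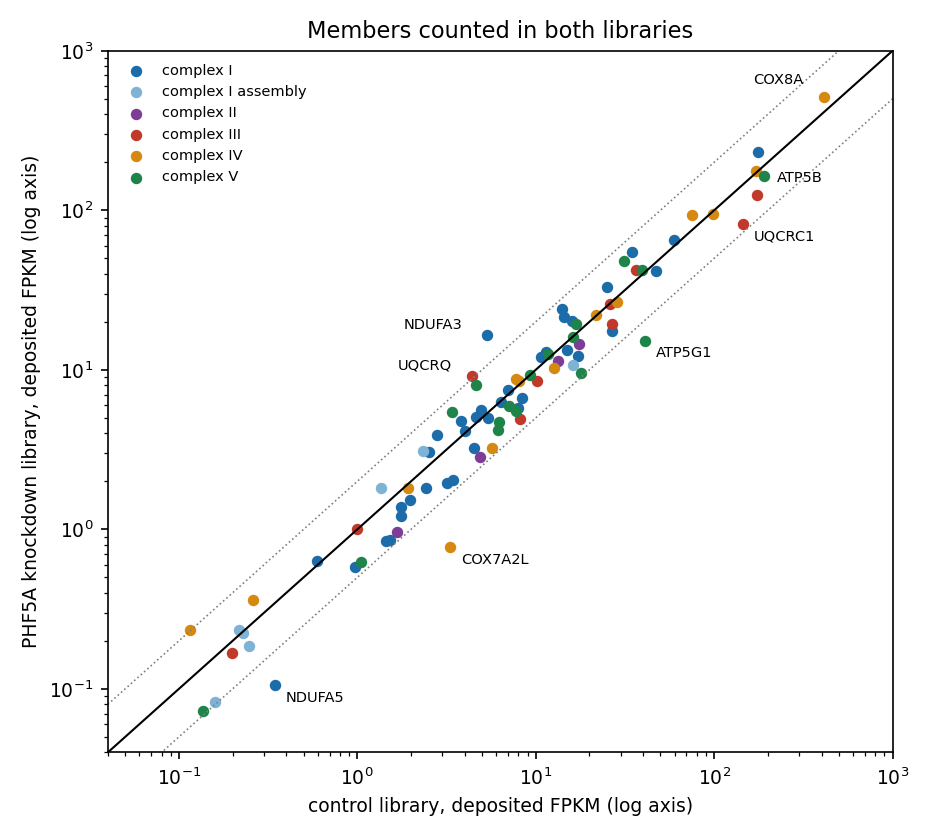
Deposited FPKM in the knockdown library (y axis, log) against the control library (x axis, log) for the genes with counts in both libraries, coloured by complex; the solid line marks equal levels and the dotted lines 2-fold. Most points lie between the dotted lines over the range from under 0.1 to 517 FPKM, with NDUFA3, UQCRQ and, at a low level, NDUFA4L2 above the upper line and ATP5G1, COX7A2L and NDUFA5 below the lower one.

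The order of the levels depended on the gene length behind the FPKM. For 82 of the 90 genes with a control count (91.1%), the length implied by the deposited FPKM was within 1% of the summed length of all distinct exons in GENCODE 29, with overlapping exons counted again. This length was a median 1.59 times the merged exon length, and from 0.959 to 3.10 times over these genes. Genes with many overlapping exons therefore have lower deposited FPKM for the same counts. COX8A had 414 FPKM in the control library with either length. ATP5B had 191 FPKM as deposited and 466 with merged exons, which placed it above COX8A. COX4I1 moved from rank 21 to rank 13. With merged lengths 79 genes were expressed in place of 78, and 9 of the 10 highest genes were shared. Ratios between the libraries do not depend on the length apart from the 1 added to FPKM and the level filter.

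**Figure D4:**
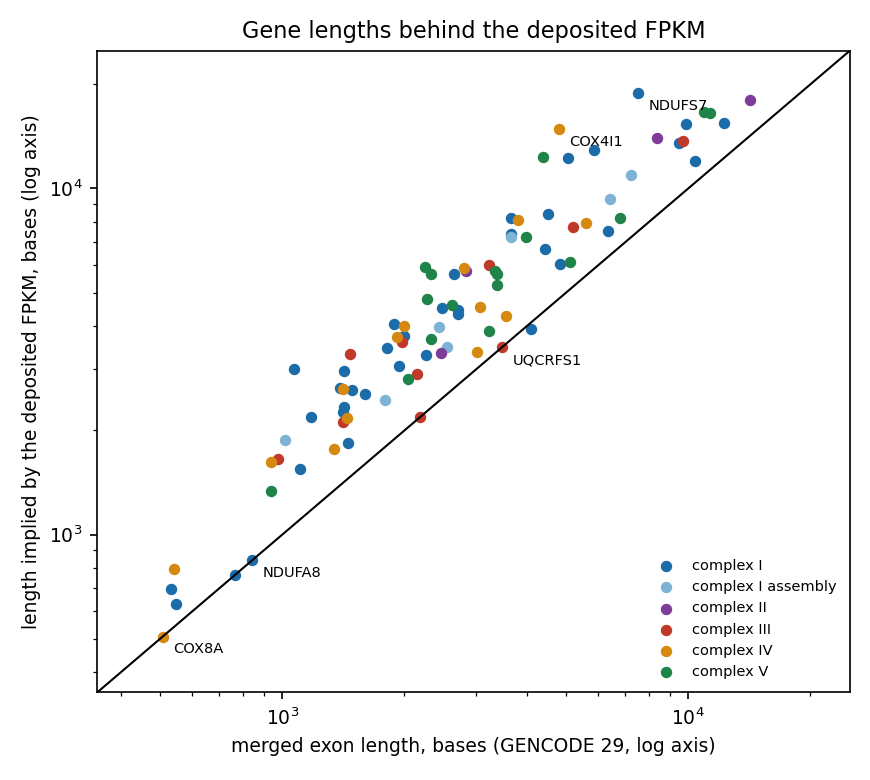
Length implied by the deposited FPKM (y axis, bases, log) against the merged exon length in GENCODE 29 (x axis, bases, log) for the 90 genes with a control count, coloured by complex; the line marks equal lengths. COX8A, NDUFA8 and UQCRFS1 lie on the line, while most genes, COX4I1 and NDUFS7 among them, lie above it.

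The genes shared features that the symbol rule did not use. For each, GC content, exon number and length were taken from the GENCODE 29 transcript with the longest coding sequence. Over the 78 expressed genes the log2 ratio had a Spearman correlation of 0.36 with GC content, -0.35 with exon number and -0.43 with transcript length. Over all expressed protein-coding genes these were 0.08, -0.14 and -0.11. All points come from the same 2 libraries, so the correlations are descriptions. The 22 genes of at least 55% GC had a median log2 ratio of 0.32, and 18 of them (81.8%) lay above the median of all expressed genes, as did 52.5% of all expressed protein-coding genes of that GC content. Of the 11 genes with 10 or more exons, 2 did (18.2%), with a median of -0.39, as did 44.0% of all with that many exons. All 12 genes with both at least 55% GC and at most 4 exons lay above it, against 60.3% of the 872 expressed protein-coding genes with the same features. These bins were chosen after the values were seen.

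Chromosome 19, which is rich in GC, held 13 of the 95 genes, and 11 were expressed. Their median log2 ratio was 0.32, against -0.18 for the 67 on other chromosomes and -0.04 for all 789 expressed genes of chromosome 19. NDUFA3, NDUFA11, NDUFA13, ATP5D, NDUFB7 and COX6B1 were among them, and UQCRFS1 was the 1 gene of the 11 below the median of all expressed genes. Of all expressed genes of chromosome 19, 58.6% lay above it. Outside chromosome 19 the correlation with GC content was 0.18 and that with exon number -0.37. GC content and place on chromosome 19 go together in these genes and their parts were not tested.

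**Figure D5:**
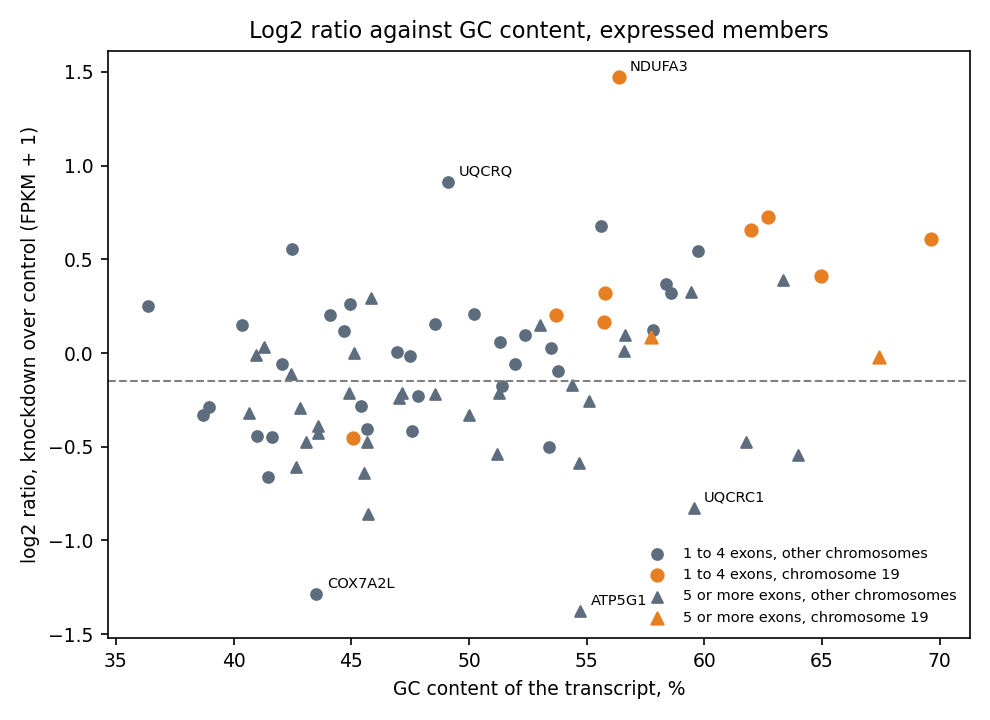
Log2 ratio of knockdown to control (FPKM + 1, y axis) against transcript GC content in percent (x axis) for the 78 expressed genes; circles have 1 to 4 exons, triangles 5 or more, orange marks chromosome 19 and the dashed line is the median of all expressed genes. Circles at 55% GC or more all lie above the dashed line, and 10 of the 11 chromosome 19 genes do.

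Other genes of the pathway, from lists chosen by function with earlier results of these data known, were taken beside these values. Of 41 electron carrier and assembly factor genes in the table, 27 were expressed, with a median log2 ratio of -0.10; with 1 added to FPKM, none was at least 2-fold higher and 1 was lower. That gene, COA3, an early assembly factor of complex IV, had 18.9 FPKM in the control and 5.004 after knockdown, 3.77-fold lower in CPM. COA1 was the next lowest, with 2.76 and 1.28 FPKM (2.16-fold lower in CPM), and UQCC2 and COX15 were the highest, with 6.835 and 11.6 and with 6.06 and 9.35 FPKM. CYCS, cytochrome c itself, had 2.89 and 2.14 FPKM.

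Of 14 regulators of respiratory genes, 8 were expressed, with a median of -0.04, and none was 2-fold apart. YY1 had 1.24 and 1.93 FPKM and POLRMT, the mitochondrial RNA polymerase, 47.8 and 55.7. SP1 and PPRC1 were the lowest expressed regulators, at log2 ratios of -0.36 and -0.34. NRF1 had 3.08 and 2.69 FPKM. PPARGC1A, a coactivator high in heart and muscle, had 128 and 3 counts and stayed under 1 FPKM. Of 16 tricarboxylic acid cycle genes, 14 were expressed with a median of -0.31, and with 1 added to FPKM OGDH was the 1 gene at least 2-fold lower, with 34.9 and 10.3 FPKM. In CPM, PDHB (2.28 and 0.810 FPKM) was 2.82-fold and SUCLG1 2.20-fold lower too, while IDH3G and MDH2 were highest, with 15.3 and 19.2 and with 64.7 and 69.7.

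The mRNAs of the mitochondrial chromosome encode the remaining subunits. Of 13, 3 were higher and 5 lower by 2-fold or more after knockdown. MT-ATP6 had 1182 and 0 counts while its overlapping neighbour MT-ATP8 had 0 and 105, and MT-ND4L had 145 and 0 while its neighbour MT-ND4 had 21 and 1491. The remaining lower ones were MT-CO3 (2295 and 39 counts), MT-ND5 (753 and 0) and MT-ND6 (85 and 29), and the remaining higher one was MT-ND3 (0 and 24). How reads shared by neighbouring or copied entries were counted is not known here, and its part in these values was not tested. MT-CO1, with most of these counts, had 23137 and 15087, 1.496-fold lower. Overlaps also touch the nuclear genes: 46 of the 95 overlapped another entry with counts, 20 of them on the same strand, and 22 overlapped an entry with more control counts than their own.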

How the data were processed

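Libraries were stranded and made from total RNA, per the labels' protocols. The submitters' processing notes name HISAT2 2.0.4, Cuffdiff and the hg38 build. The sources used here do not give the annotation, the strand setting or the counting of multiply mapped reads. Each gene row of the deposited table holds a count and an FPKM per library. The FPKM is the count divided by a fixed length per gene and the library total. Of 50869 lines, 2 that hold 1 broken entry were left out.

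Gene models came from GENCODE 29 by gene identifier, which matched all 95 genes, and promoters from RefSeq (GRCh38.p14) by symbol. Log2 ratios used FPKM with a pseudocount of 1, a minimum of 1 FPKM in the higher library and thresholds of 2-fold and 1.5-fold. CPM ratios carry exact conditional binomial (Clopper-Pearson) intervals and shares exact binomial ones, at 95%. No test across samples was possible with 1 library per group. The genes and gene lists were chosen with earlier results of these data known. Genes named are those at least 2-fold apart, the 3 highest and 3 lowest expressed of each complex, core subunits, tissue copies and, of each other list, the 2 highest and 2 lowest expressed. The values of 1 gene that this rule names are not reported here. Others named for a context, such as an overlap or a level, were chosen after their values were seen. Alternatives were pseudocounts of 0.1 and 0.5, no filter, at least 5 FPKM, median centring, upper-quartile, TPM and protein-coding scaling, CPM with a prior of 0.5, sums with pseudogenes, and subunits alone; the merged exon length was added after seeing the data. The ratios, calls and intervals were run on simulated counts with known changes. These held counting error alone, so the run does not cover variation between cultures or overlapping entries. Scripts ran in Python 3.11.15 (scipy 1.17.1, pandas 2.3.3, numpy 2.4.6, matplotlib 3.10.9).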

Additional observations from a re-analysis of the deposited data

How the results depend on the processing

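No paired analysis was possible because each group held 1 library. Of the 78 expressed genes, 9 were higher and 32 lower in the knockdown library in each of up to 13 settings that kept them. The other 37 changed sign between settings. The same count was not made over all expressed genes, of which 5552 of 8957 were below 0 as reported. A filter leaves a gene's ratio as it is, and a pseudocount, the CPM prior or the merged length leaves its sign. Agreement in sign therefore rests on centring, on upper-quartile, TPM and protein-coding scaling, and on the sums with pseudogenes. NDUFA3 and ATP5G1 stayed at least 2-fold apart in every setting, and COX7A2L in each that kept it. Genes at least 2-fold higher numbered 1 as reported and 2 with a pseudocount of 0.1, CPM with a prior of 0.5, median centring, upper-quartile scaling or protein-coding scaling, UQCRQ being the addition, and 6 at 1.5-fold. Genes at least 2-fold lower numbered 2 as reported, 6 under TPM rescaling, 8 at 1.5-fold, and 1 with at least 5 FPKM or with subunits alone, each of which left out COX7A2L. The median of all expressed genes was -0.15 as reported, -0.47 under TPM, 0.06 under upper-quartile and -0.02 under protein-coding scaling, and the share of higher among all calls went from 29.03% to 7.08%, 52.6% and 43.5%, and to 49.1% with centring. All calls numbered 227 higher and 555 lower as reported and 505 and 1239 with CPM and a prior. As shares of all expressed genes, the latter were 5.64% and 13.8%. A pseudocount of 0.1 gave 5.24% higher and 12.6% lower, and at least 5 FPKM gave 3.24% and 7.64%. Upper-quartile scaling gave 4.35% and 3.91%, and protein-coding scaling 4.01% and 5.21%. Shares as reported, with centring, under TPM and at 1.5-fold are given above. Relative to all expressed genes, the complex I assembly factors were at 0.40 as reported, -0.41 with at least 5 FPKM, where 1 gene was left, and 0.035 with no filter. Complex II was at -0.20 as reported and -0.32 with CPM and a prior, complex III at -0.09 and -0.21 with at least 5 FPKM, and complex V at 0.04 and 0.16 with upper-quartile scaling. The setting of subunits alone still held ATP5SL among the complex V genes. The median of the whole set stood 0.09 above that of all expressed genes, and -0.02 with no filter. Of 50 named genes, 42 moved beyond their counting margin under TPM rescaling, 37 under upper-quartile scaling, 32 with centring and 31 under protein-coding scaling. The depth limits genes of few counts, and counting intervals leave variation between cultures unmeasured.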
